A study of Mus musculus with 2 samples.

Results

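The genes of Wnt ligands, their receptors and their modulators were followed through the cell classes of the embryonic mouse cortex. The set holds every gene whose symbol is Wnt or Fzd followed by a number (and, for Wnt, an a or b where the gene has one), together with 21 named co-receptors, antagonists, agonists and nuclear factors. In total 50 of the 32285 genes in the matrices were members: 19 ligands, 10 Frizzled receptors, 5 co-receptors or alternative receptors, 5 secreted modulators, 6 R-spondins or R-spondin receptors, and 5 nuclear factors or feedback targets. The rule itself uses gene names only.

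Single-cell RNA libraries came from the cortex of 2 wild-type embryos at embryonic day 16.5, named embryo 4 and embryo 5 after their labels. Their titles carry the name EoMltt3, which the sources do not explain, and the genotype WT, while the methods of the study give C57BL/6J for cortices of this stage. The labels name the tissue as brain hemispheres and the protocol as cortex, and LGE-type neurons and GABAergic progenitors, which belong to the ventral forebrain, were among the cells. No treatment, mutant or other stage was available here, so the comparisons run between cell classes within the same embryos and the number of replicates is 2. The tissue was dissociated with papain and each embryo gave 1 library prepared with the 10x Genomics 3′ v3.1 chemistry, in which every captured RNA molecule carries a unique molecular identifier (UMI).

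Wnt proteins are secreted, lipid-modified ligands that act mostly on nearby cells. They bind Frizzled receptors, and together with the co-receptors *Lrp5* or *Lrp6* they keep beta-catenin from being degraded, so that it can act with TCF and LEF factors in the nucleus. Ror and *Ryk* receptors carry other branches of the pathway, Sfrp and Dkk proteins limit signalling outside the cell, and R-spondins raise it through Lgr receptors by preserving Frizzled at the membrane. In the forebrain the cortical hem, a strip at the medial edge of the cortex beside the choroid plexus, is known as a Wnt source, and Wnt signalling is known to act on the proliferation of radial glia and on blood vessel growth.

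After filtering, 9932 cells of embryo 4 and 10416 cells of embryo 5 remained, with a median of 10029.5 and 8830 UMIs per cell. Clusters were built without the member genes and named from markers that contain none of them. Of 28 clusters, 22 received 1 of 15 names, and the 6 others, with 4144 cells, stayed unnamed. All names are used in the sense of "-like": radial glial cells (RGC), intermediate progenitor cells (IPC), immature excitatory, deep-layer, upper-layer and Cajal-Retzius neurons, GABAergic progenitors, interneurons of the medial (MGE) and caudal (CGE) ganglionic eminence type, LGE-type GABAergic neurons, cortical hem and choroid plexus cells, endothelial cells, pericytes, meningeal fibroblasts and microglia. In 11 of the 15 classes every listed marker, or all but 1, was over 2-fold above the other cells, whereas LGE-type neurons (5 of 9), CGE interneurons (6 of 8), immature excitatory neurons (6 of 8) and upper-layer neurons (6 of 9) were marked less completely. A cluster of immature excitatory neurons had as many IPC markers as markers of its own among its leading genes, and the cluster of deep-layer neurons led by Slit3 and *Crym* was tied in the same way with a subplate marker. The only cluster of CGE interneurons was tied as well, with 1 of its own markers, Adarb2, among its leading genes. These also included *Pbx3*, *Gad1* and *Dlx1*, which are markers of LGE-type neurons, MGE interneurons and GABAergic progenitors. The libraries shared 46 barcodes, 26 of them among kept cells, and the fibroblasts came from embryo 5 alone.

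Levels are given as CPM, that is, the UMIs of a gene summed over the cells of a class in 1 embryo and scaled by all UMIs of those cells to the usual common total. Where a pair of values stands together, the first is embryo 4 and the second is embryo 5. Classes with at least 50 cells in each embryo (10 of 15) allow a reading across embryos, and 6 of them were set against all other kept cells by the quasi-likelihood method of edgeR, with p-values adjusted after Benjamini and Hochberg over every gene tested. Hem, endothelial, pericyte, fibroblast and microglia classes were smaller and their levels carry an exact 95% Poisson interval, which covers counting error only. No test was made for them. Classes were formed from other genes of the same cells, so a difference between classes is not independent of the clustering. In summed counts, fewer cells with a transcript and less of it per cell cannot be told apart. Levels are compared between classes and never between genes.

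**Figure D1:**
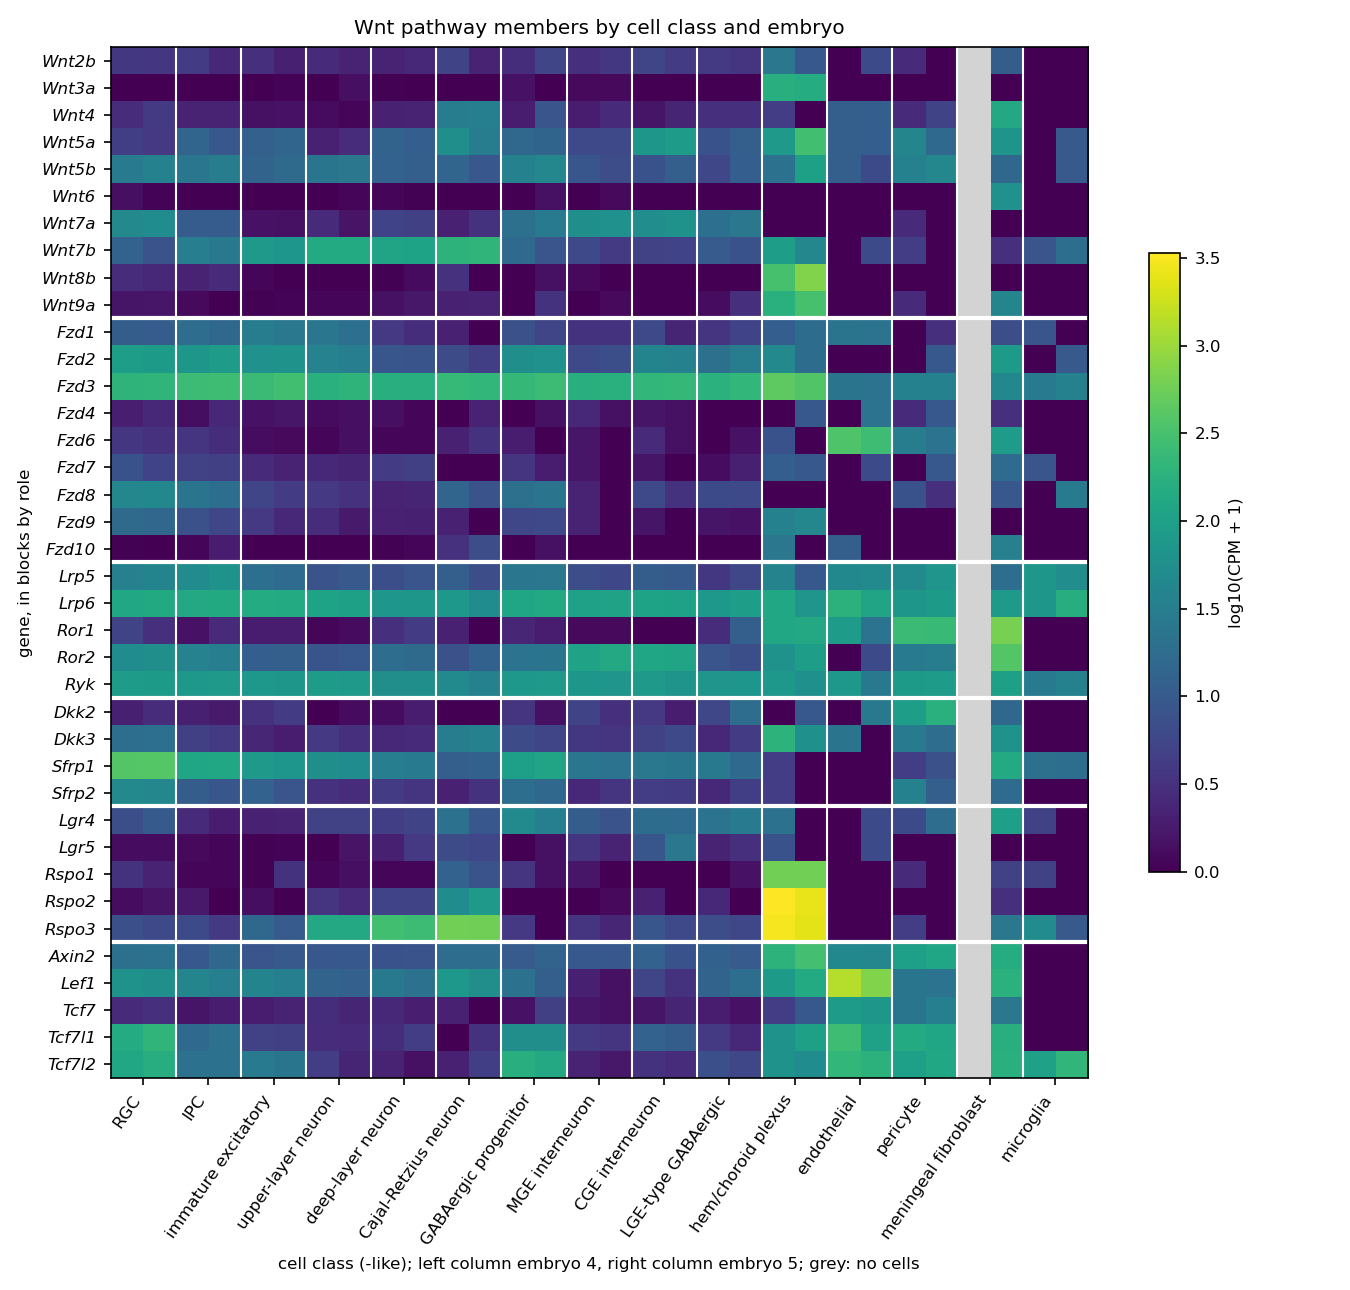
Level of the 38 members that reached 10 CPM in a named class, as log10(CPM + 1), with genes as rows in blocks by role and classes as column pairs (embryo 4 left, embryo 5 right). The bright entries for R-spondins and ligands lie in the hem and choroid plexus column, while *Fzd3*, *Lrp6* and *Ryk* are found across nearly all columns.

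Expression of the family was uneven. A mean of 10 CPM was reached by 38 members in at least 1 named class, but by only 26 in a class of at least 50 cells per embryo, so that 12 members reached it only in the small classes of the hem, vessels or meninges. The other 12 members stayed under 10 CPM everywhere. In a class of at least 50 cells per embryo, 5 of 10 Frizzled genes, 4 of 5 co-receptors or alternative receptors and 5 of 19 ligands passed 10 CPM. *Wnt9b* gave 0 and 1 UMIs over all kept cells of the embryos, *Wnt10b* gave 1 and 0 and *Wnt8a* 2 and 2, all at or under the 3 counts taken as the floor. *Wnt1*, *Wnt2*, *Wnt6*, *Wnt10a*, *Wnt11*, *Wnt16*, *Fzd10* and the antagonist *Dkk1* were also near 0, each with fewer than 50 UMIs in both embryos together. The few UMIs could lie in small classes: of those of *Fzd10*, 7 of 14 in embryo 4 lay in the hem class and 17 of 32 in embryo 5 in the fibroblasts.

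Radial glial cells, the stem-like progenitors of the cortex, had the most higher members of the 6 classes tested. Of 40 members tested there, 18 were higher and 10 lower than in all other cells, that is 45% and 25% of them, beside 31.5% and 34.8% of all genes tested. Their median log2 fold change was 0.30, against -0.05 over all genes. The higher members spanned Frizzled receptors (5 of 9), co-receptors (4 of 5), secreted modulators (3 of 4) and nuclear factors (4 of 5), whereas none of the 6 R-spondins and R-spondin receptors was higher and 4 were lower. With clusters led by cycling genes left out, 6 members instead of 10 were lower, and the share of all genes called without these clusters is not given.

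Intermediate progenitors, the daughters of radial glia that divide again before giving neurons, showed another balance. Here 8 of 40 members were higher and 16 lower, that is 20% and 40%, with a background of 22.2% and 26.1% of genes. The share of higher members was thus near that of all genes. The median over members was 0.01 against -0.05 over all genes. Receptor genes made up 6 of the 8 higher members, where 10 Frizzled genes and 5 co-receptors or alternative receptors were among the 40 tested. This split depends on the cells set against IPC: in a single fit over the 10 larger classes, with each class weighted equally, 18 members were higher and 3 lower. The share of all genes called in that fit is not given here, so whether the shift was particular to members is not known.

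In neurons the members were mostly lower. Immature excitatory neurons had 8 higher and 20 lower of 40 members tested (background 23.0% and 28.1%), with a median log2 fold change of -0.76 against -0.04 over all genes. In deep-layer neurons, 5 members were higher and 23 lower of 41 (background 25.1% and 27.1%, median -0.70 against -0.01). Upper-layer neurons had 5 higher and 22 lower of 40 (background 15.8% and 23.3%), with a median of -1.14 against -0.06, or -1.10 when the 2 members at 0 in this class were set at their bound of 3 counts. MGE interneurons had 3 higher and 22 lower of 41 (background 17.4% and 24.0%), and their median of -1.49 against -0.05 was the lowest of the 6 classes. The shares of tested members that were lower in these 4 classes were 50%, 56.1%, 55% and 53.7%, each above the share of all genes. In a single fit over the 10 larger classes, which leaves the hem, vessels and meninges out, the numbers of lower members were 7, 15, 11 and 14, and 4 in RGC. Without the deep-layer cluster tied with a subplate marker, 2 members instead of 5 were higher in deep-layer neurons. For neither alternative is the share of all genes called given here, so whether these shifts were particular to members is not known.

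Set directly against each other, RGC and IPC differed in 18 of 32 members tested. In RGC 13 members were higher and 5 lower, beside 25.2% and 24.2% of all genes. The median was 0.56, while that of all genes rounded to 0. The 3 modulators *Sfrp1*, *Sfrp2* and *Dkk3* and 4 of the 5 nuclear factors or feedback targets were on the RGC side.

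**Figure D2:**
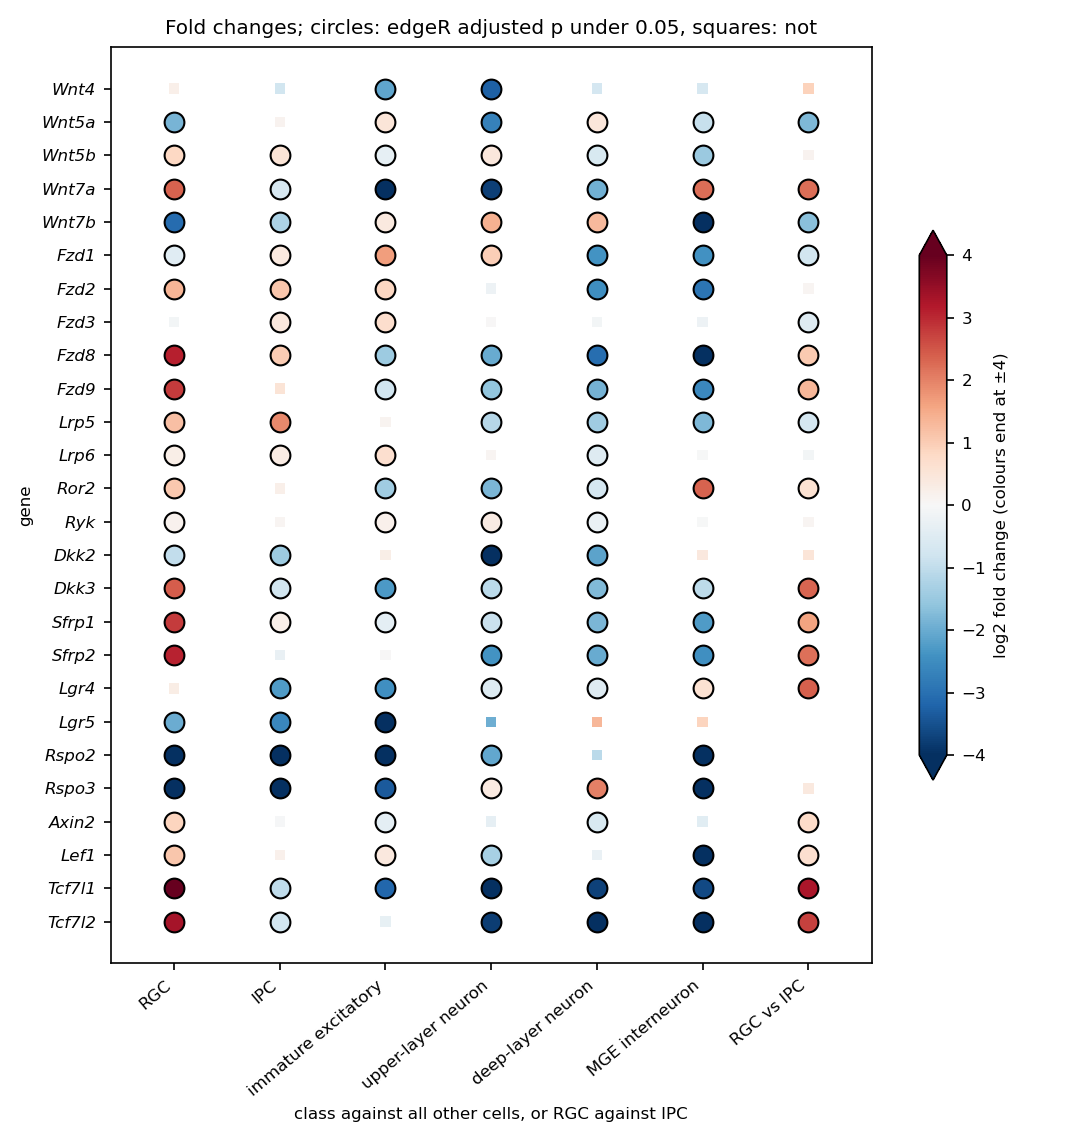
Log2 fold change of members that reached 10 CPM in a class of at least 50 cells per embryo (rows) in the 6 classes against all other cells and in RGC against IPC (columns), with circles for an edgeR adjusted p under 0.05 and small squares otherwise. Red circles gather in the RGC column for *Tcf7l1*, *Tcf7l2*, *Fzd8*, *Fzd9*, *Sfrp1* and *Sfrp2*, and the circles of the MGE interneuron column are blue except for *Wnt7a*, *Ror2* and *Lgr4*.

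The ligands *Wnt7a* and *Wnt7b*, close relatives that can both act on the brain's blood vessels through a receptor complex with *Reck* and *Adgra2*, were found in largely separate classes. *Wnt7a* was at 53.2 and 63.2 CPM in CGE interneurons, 55.5 and 60.1 in MGE interneurons and 44.3 and 51.2 in RGC. These 3 classes stood above all other large classes in both embryos. CGE and MGE interneurons did not separate from each other, and the lower MGE value lay only just above the higher RGC value. GABAergic progenitors followed with 18.9 and 27.8 CPM and overlapped with LGE-type neurons at 18.2 and 23.9. Next were IPC with 9.66 and 9.56, and then deep-layer neurons with 4.06 and 3.71 CPM. In Cajal-Retzius, upper-layer and immature excitatory neurons *Wnt7a* was under 3 CPM in both embryos.

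*Wnt7a* was higher in RGC than in all other cells (log2 fold change 2.37 ± 0.11 (SE), edgeR adjusted p = 5.37e-06). The same held for MGE interneurons (log2 fold change 2.23 ± 0.12 (SE), edgeR adjusted p = 5.56e-06). RGC also exceeded IPC (log2 fold change 2.24 ± 0.13 (SE), edgeR adjusted p = 3.01e-06). The same order was seen among cycling cells, with 45.9 and 52.6 CPM in the cycling cluster of RGC and 15.2 and 10.3 in that of IPC. IPC were lower than all other cells (log2 fold change -0.66 ± 0.14 (SE), edgeR adjusted p = 0.00644), but in the fit that weights 10 classes equally this value turned to 0.14. By cell, 33.4% and 35.7% of RGC and 28.9% and 30.5% of MGE interneurons held a *Wnt7a* UMI, against 0.455% and 0.355% of immature excitatory neurons, which serve here as a class that lacks the gene. Median depths were 10814 and 9749.5 UMIs in RGC, 6368 and 6387 in MGE interneurons and 9367 and 7904.5 in immature excitatory neurons. After thinning every cell to 2000 UMIs, the shares were 7.84% and 9.57% in RGC and 11.5% and 12.4% in MGE interneurons, so that the order of these classes changed with the depth while both stayed above the 0.172% and 0.0595% of immature excitatory neurons.

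Within MGE interneurons, *Wnt7a* was found in cells with and without a UMI of the somatostatin gene *Sst*, which also led an unnamed cluster of 180 cells. Cells with one stood at 47.1 and 55.2 CPM and cells without one at 63.5 and 64.6. *Ror2*, which encodes a receptor tyrosine kinase for *Wnt5a*, was at 78.5 and 99.97 CPM with and 133 and 166 without an *Sst* UMI. For both genes the lower level was found with *Sst* in each embryo, but the Poisson intervals of *Wnt7a* overlapped. The lower level with *Sst* was not particular to these genes. *Fzd3* was at 152 and 149 CPM with and 175 and 197 without an *Sst* UMI, and *Wnt5a* at 3.05 and 3.33 with and 7.05 and 6.64 without. These pairs were not tested, and cells without an *Sst* UMI were shallower (median 5419 and 5915 UMIs against 7922 and 7094.5).

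*Wnt7b* showed nearly the reverse order. It was highest in Cajal-Retzius neurons at 192 and 201 CPM, followed by upper-layer neurons at 141 and 141 and deep-layer neurons at 115 and 110.1. Immature excitatory neurons had 76.3 and 71.4 CPM and IPC 31.2 and 25.3. Each of these 5 classes was apart from the next in both embryos, so that *Wnt7b* was higher at each step from IPC to immature and then to layered excitatory neurons. GABAergic progenitors, RGC and LGE-type neurons overlapped with each other, at 15.1 and 7.63, 11.8 and 6.91 and 9.40 and 6.62 CPM, and MGE and CGE interneurons were lowest with 5.10 and 2.98 and with 3.92 and 4.07. In the tests, *Wnt7b* was higher in upper-layer (log2 fold change 1.42 ± 0.07 (SE), edgeR adjusted p = 1.61e-05) and deep-layer neurons (log2 fold change 1.31 ± 0.06 (SE), edgeR adjusted p = 8.04e-06) and lower in MGE interneurons (log2 fold change -4.002 ± 0.17 (SE), edgeR adjusted p = 1.62e-06) and RGC (log2 fold change -3.08 ± 0.19 (SE), edgeR adjusted p = 2.16e-05). IPC were higher than RGC, with an RGC to IPC difference of -1.67 ± 0.22 on the log2 scale (edgeR adjusted p = 0.000402). The lower value of IPC against all other cells (-1.25 on the log2 scale) turned to 0.18 when the classes were weighted equally.

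**Figure D3:**
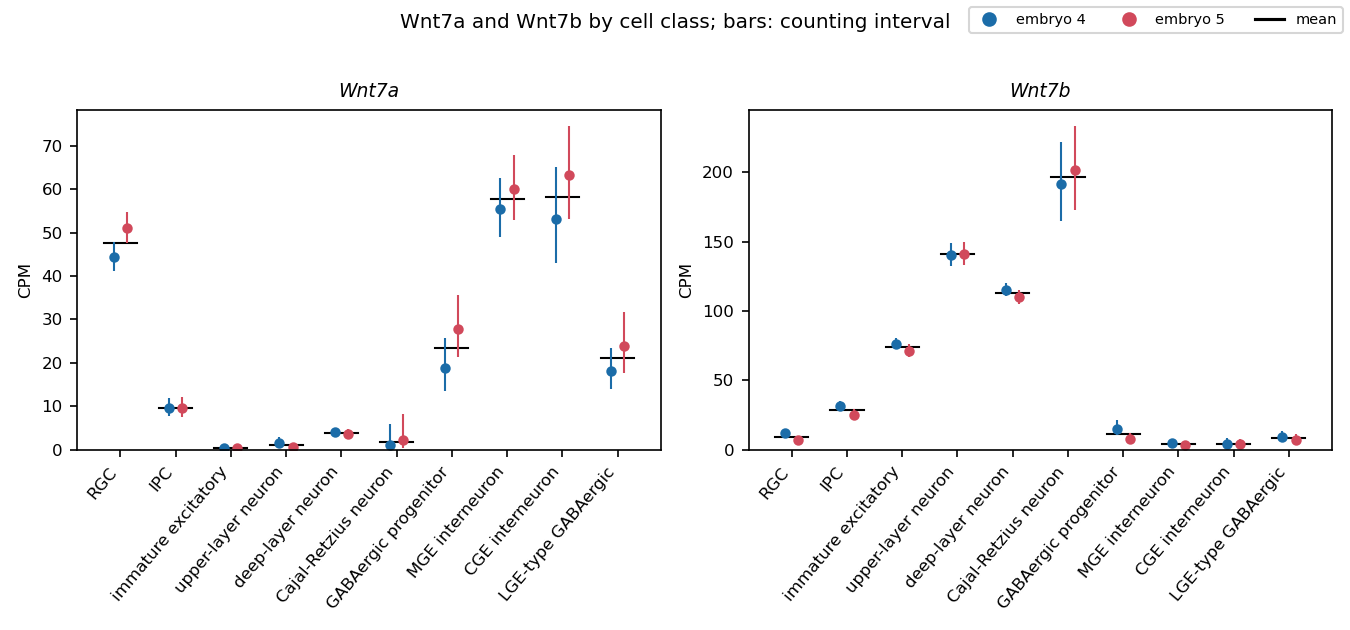
CPM of *Wnt7a* (left) and *Wnt7b* (right) in the 10 classes with at least 50 cells in each embryo, with 1 point per embryo, its exact 95% Poisson interval and a line at the mean. *Wnt7a* is high in RGC and in MGE and CGE interneurons and near 0 in excitatory neurons, whereas *Wnt7b* is high in Cajal-Retzius, upper-layer and deep-layer neurons and low in interneurons.

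*Wnt5a*, a ligand known mainly for signalling without beta-catenin, was marked in CGE interneurons at 72.3 and 84.9 CPM, against 5.10 and 5.04 in MGE interneurons. Cajal-Retzius neurons had 56.02 and 29.9 CPM. In the progenitors it ran opposite to *Wnt7a*: RGC had 3.57 and 2.90 CPM and IPC 13.1 and 8.21, and RGC were lower than IPC (log2 fold change -1.80 ± 0.27 (SE), edgeR adjusted p = 0.000769) and lower than all other cells (log2 fold change -1.85 ± 0.14 (SE), edgeR adjusted p = 5.41e-05). MGE interneurons (-0.94 on the log2 scale, adjusted p = 0.00288) and upper-layer neurons (-2.70, adjusted p = 0.00016) were also lower by edgeR. In deep-layer neurons the level was carried by 1 of 3 clusters, the one led by Slit3 and *Crym*, with 26.8 and 23.9 CPM against 4.43 and 2.94 and 6.61 and 5.08 in the other clusters. The deep-layer call (0.50) turned to -0.76 without that cluster, whose leading genes include a subplate marker. The call in immature excitatory neurons (0.52) also turned, to -0.12, without the cluster tied with IPC.

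*Wnt5b*, the close relative of *Wnt5a*, had its highest means among the large classes in progenitors. It was at 34.96 and 41.3 CPM in GABAergic progenitors, 27.5 and 34.8 in RGC, 23.01 and 30.3 in IPC and 22.4 and 23.9 in upper-layer neurons, and at 7.65 and 5.73 in MGE interneurons. IPC and upper-layer neurons overlapped. Among the small classes, pericytes held 1.11% and 1.04% of the *Wnt5b* UMIs, with 0.568% and 0.484% of all UMIs. RGC were higher (log2 fold change 0.82 ± 0.12 (SE), edgeR adjusted p = 0.00128) and MGE interneurons lower (log2 fold change -1.49 ± 0.18 (SE), edgeR adjusted p = 0.000394) than all other cells. IPC were higher as well (0.54 ± 0.14 on the log2 scale, edgeR adjusted p = 0.0153), a call that was lost with at least 1500 detected genes, with at most 5% mitochondrial counts or with members allowed in the clustering. RGC and IPC did not separate in the direct comparison, where the log2 fold change was 0.15 ± 0.16 (edgeR adjusted p = 0.463).

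Several other ligands were concentrated in a few cells. The hem and choroid plexus class consisted of 29 and 15 cells, with 0.285% and 0.123% of all UMIs, and held 88.9% and 75% of all *Wnt3a* UMIs, 66.2% and 66.9% of all *Wnt8b* UMIs and 65.4% and 39.6% of all *Wnt9a* UMIs. *Wnt3a*, the ligand by which the hem is often recognised, was at 163 and 151 CPM there (intervals 120.2 to 216 and 89.7 to 239). *Wnt8b* was at 313 and 731 CPM (252 to 383 and 586 to 902) and *Wnt9a* at 173 and 319 (129 to 228 and 226 to 438). None of these 3 ligands reached 3 CPM in a large class. The class was mixed: at least 2 hem markers were found in 19 of 29 and 7 of 15 cells, and at least 2 choroid plexus markers in 13 and 6. *Wnt8b*, *Rspo1* and *Rspo2* were among the genes that led the cluster by fold, although they had been kept out of the clustering.

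Since so much of the RNA of these genes lay in the hem class, the calls for them in other classes describe the hem as well. *Wnt3a* was lower in RGC, IPC, immature excitatory and deep-layer neurons, calls of which DESeq2 kept only that in RGC, and *Wnt8b* in immature excitatory, deep-layer and upper-layer neurons and in MGE interneurons. *Wnt9a* was lower in IPC, immature excitatory and upper-layer neurons and in MGE interneurons. In the equally weighted fit, which leaves the hem out, the *Wnt8b* value in deep-layer neurons turned from -3.11 to 0.47.

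*Wnt5a* was also high in the hem class, at 78.1 and 286 CPM (intervals 49.5 to 117 and 198 to 399), and the 2 embryos differed beyond counting error. *Wnt5b* had 20.4 and 101 CPM and *Wnt7b* 91.7 and 42.02, while no *Wnt7a* UMI was counted there, where 3 counts correspond to 10.2 and 25.2 CPM. Outside the neural classes, meningeal fibroblasts of embryo 5 had 132 CPM of *Wnt4* (interval 102 to 167), 65.8 of *Wnt5a* and 59.8 of *Wnt6* (40.3 to 85.4), and 39.9 of *Wnt9a*. *Wnt4* was otherwise highest in Cajal-Retzius neurons (29.1 and 32.2 CPM), which lie just beneath the meninges. It was lower than in all other cells in immature excitatory (-2.11 on the log2 scale, adjusted p = 0.0104) and upper-layer neurons (-3.25, adjusted p = 0.0164) by edgeR. *Wnt2b* was at 23.8 and 8.40 CPM in the hem class and under 5 CPM in every large class. *Wnt3* was at 3.34 and 3.57 CPM in LGE-type neurons and 1.12 and 4.97 in CGE interneurons, and under 2 CPM in the other classes. *Wnt3* was lower in RGC (-1.97 on the log2 scale, edgeR adjusted p = 0.0207), a call not kept by DESeq2. *Wnt10a*, nearly absent elsewhere, was called higher in deep-layer neurons (log2 fold change 3.50 ± 0.87 (SE), edgeR adjusted p = 0.0145) from 22 UMIs of embryo 4 and 4 UMIs of embryo 5 in the cluster led by Slit3 and *Crym*, and none in the other deep-layer clusters.

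**Figure D4:**
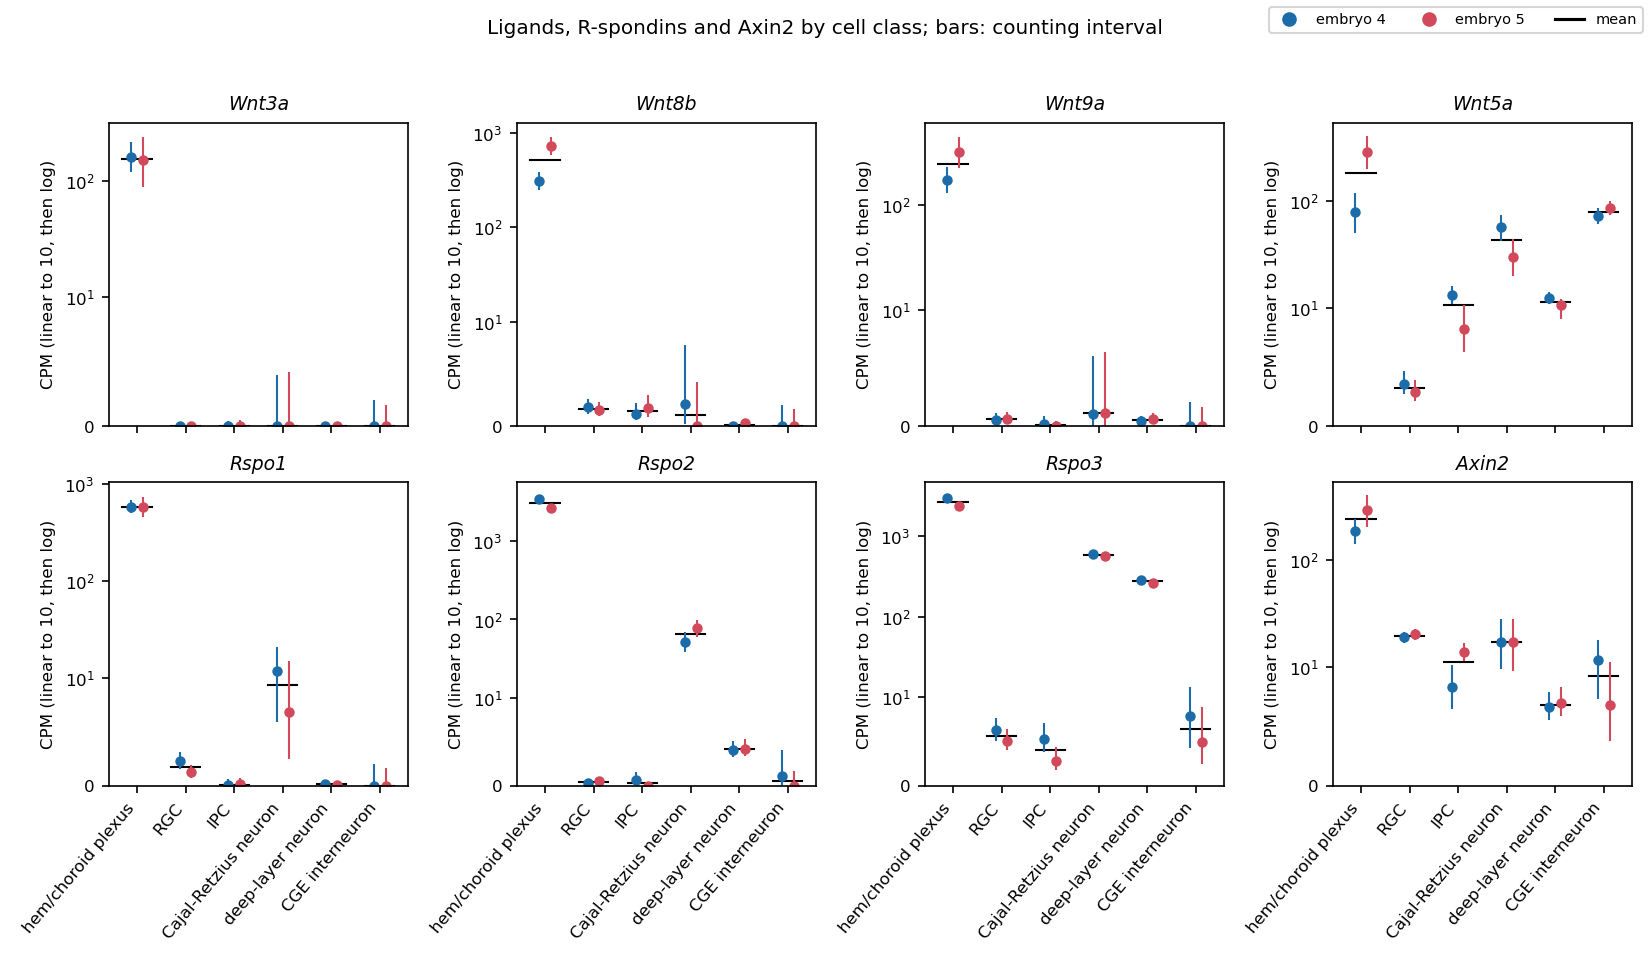
CPM of 4 ligands, 3 R-spondins and the feedback gene *Axin2* in the hem and choroid plexus class and 5 other classes, with 1 point per embryo, its exact 95% Poisson interval and a line at the mean, on an axis that is linear to 10 CPM and logarithmic above. In both embryos *Wnt3a*, *Wnt8b*, *Wnt9a*, *Rspo1* to *Rspo3* and *Axin2* are higher in the hem class than in the 5 other classes, and *Wnt5a* of embryo 4 there lies within the range of CGE interneurons.

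Among the Frizzled receptors, *Fzd3*, known for its part in axon growth and planar polarity, was spread evenly over the neural classes. It was at 257 and 284 CPM in immature excitatory neurons and 263 and 270.2 in IPC, and no large class fell under 160.3 and 168 CPM, the level of deep-layer neurons. Hem cells had 455 and 369.8 CPM, whereas endothelial cells had 21.5 and 20.8. IPC (log2 fold change 0.46 ± 0.06 (SE), edgeR adjusted p = 0.000733) and immature excitatory neurons (log2 fold change 0.70 ± 0.07 (SE), edgeR adjusted p = 0.000244) were higher than all other cells, by less than 2-fold. RGC were lower than IPC (log2 fold change -0.51 ± 0.07 (SE), edgeR adjusted p = 0.000487).

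Among the large classes, *Fzd8*, *Fzd9* and *Fzd2* were highest in progenitors. *Fzd8* was at 42.1 and 42.99 CPM in RGC, 21.6 and 17.6 in IPC and 18.9 and 21.99 in GABAergic progenitors, and under 6 CPM in layered, immature and GABAergic neurons. It was higher in RGC (log2 fold change 3.09 ± 0.12 (SE), edgeR adjusted p = 3.21e-06) and IPC (log2 fold change 1.01 ± 0.12 (SE), edgeR adjusted p = 0.000422), higher in RGC than in IPC (log2 fold change 1.04 ± 0.11 (SE), edgeR adjusted p = 0.000129) and lower in MGE interneurons (log2 fold change -4.01 ± 0.48 (SE), edgeR adjusted p = 0.000379). *Fzd9* was at 15.6 and 13.8 CPM in RGC and 6.44 and 4.58 in IPC, with an RGC to IPC difference of 1.32 ± 0.19 (adjusted p = 0.000574) and a difference of 2.80 ± 0.22 from all other cells (adjusted p = 6.07e-05) on the log2 scale by edgeR. Of the large classes, RGC were thus highest for both receptors, and every class of neurons lay below IPC in both embryos. The hem class had 33.97 and 42.02 CPM of *Fzd9* (intervals 16.3 to 62.5 and 13.6 to 98.1) and no UMI of *Fzd8*.

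*Fzd2* did not take that step. It was at 95.1 and 83.9 CPM in RGC and 73.6 and 88.8 in IPC, ranges that overlap, and their difference of 0.07 ± 0.11 on the log2 scale did not pass the test (edgeR adjusted p = 0.659). Immature excitatory neurons kept 60.8 and 61.1 CPM, upper-layer neurons had 35.8 and 30.97 and deep-layer neurons 7.66 and 7.36. The fibroblasts of embryo 5, at 81.7 CPM (interval 58.6 to 111), were at the level of RGC. It was higher than in all other cells in RGC (1.37), IPC (1.10) and immature excitatory neurons (0.86 on the log2 scale), and lower in deep-layer neurons (-2.49) and MGE interneurons (log2 fold change -2.92 ± 0.13 (SE), edgeR adjusted p = 2.25e-06).

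*Fzd1* peaked later. It was at 9.92 and 9.55 CPM in RGC, 17.3 and 14.3 in IPC, 29.3 and 24.5 in immature excitatory and 22.9 and 18.4 in upper-layer neurons, but only 2.84 and 1.91 in deep-layer neurons. Immature excitatory neurons were higher than all other cells (log2 fold change 1.66 ± 0.10 (SE), edgeR adjusted p = 1.96e-05) and deep-layer neurons lower (log2 fold change -2.38 ± 0.18 (SE), edgeR adjusted p = 6.06e-05). Upper-layer neurons were higher too (0.98 on the log2 scale, edgeR adjusted p = 0.00156), but with at most 5% mitochondrial counts this value turned to -0.34. RGC were lower than IPC (log2 fold change -0.78 ± 0.15 (SE), edgeR adjusted p = 0.00262), while their lower value against all other cells (-0.47) turned to 0.91 when classes were weighted equally.

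*Fzd6*, by contrast, was found at the vessels and meninges. It was at 355 and 269.8 CPM in the 20 and 25 endothelial cells (intervals 245 to 499 and 202 to 354), 30.7 and 21.3 in pericytes, 85.7 in the fibroblasts of embryo 5 and under 3 CPM in every large class. These few endothelial cells, with 0.0899% and 0.199% of all UMIs, held 23.9% and 31.5% of the *Fzd6* UMIs. *Fzd4*, known as the Frizzled of retinal vessels, was at 0 and 20.8 CPM in endothelial cells, on 0 and 4 UMIs. *Fzd6* was lower in immature excitatory (-2.58), deep-layer (-3.88) and upper-layer neurons (-2.47 on the log2 scale).

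*Fzd7* was low throughout, with 6.68 and 4.15 CPM in RGC (log2 fold change 1.24 ± 0.25, edgeR adjusted p = 0.00531). It was lower in MGE interneurons (-3.01). Its higher call in deep-layer neurons (0.63) came from the cluster led by Slit3 and *Crym*, at 7.06 and 6.52 CPM, and turned to -0.36 without it. The higher *Fzd4* call in RGC (0.98) and the lower *Fzd5* call in deep-layer neurons (-2.53) concerned genes under 5 CPM in these classes, and both were lost in DESeq2 and when doublets were kept.

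By cell, thinned to 2000 UMIs, a UMI of any Frizzled gene was found in 65.5% and 66.7% of hem cells, 61.1% and 50% of endothelial cells, 51.7% and 50.2% of RGC, 52.1% and 55.4% of IPC and 49.5% and 52.5% of immature excitatory neurons, against 29.7% and 30.1% of MGE interneurons and 29.2% and 29.5% of deep-layer neurons. UMIs of 2 or more Frizzled genes in the same cell were found in 12.5% and 8.62% of RGC and 10.3% and 12.7% of IPC, but in 0.441% and 0.309% of MGE interneurons. A UMI of any Wnt ligand was found in 62.1% and 86.7% of hem cells, 52.5% and 47.8% of Cajal-Retzius neurons, 28.9% and 27.9% of upper-layer neurons, 22.8% and 29.6% of CGE interneurons and 14.3% and 12.7% of IPC, and in 49.0% of the fibroblasts of embryo 5. Among the large classes, cells with a Frizzled UMI were thus most common in progenitors and immature excitatory neurons, and cells with a ligand UMI in Cajal-Retzius neurons, while hem cells had high shares of both. These shares have no test, and UMIs from free RNA are counted in them.

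The co-receptor *Lrp6* was broad, like *Fzd3*, with 148 and 140.3 CPM in immature excitatory neurons, 134 and 136 in IPC and 126 and 139 in RGC, and with 69.6 and 72.3 in deep-layer neurons. It was higher in immature excitatory neurons (log2 fold change 0.66 ± 0.06 (SE), edgeR adjusted p = 0.000127) and IPC (0.34) and lower in deep-layer neurons (log2 fold change -0.51 ± 0.05 (SE), edgeR adjusted p = 0.000293), all within 2-fold. *Lrp5*, its close relative, was more selective. IPC had 49.96 and 62.8 CPM, RGC 33.5 and 38.6, immature excitatory neurons 18.6 and 16.3 and MGE interneurons 5.74 and 4.82. IPC were above RGC in both embryos, and *Lrp5* gave the largest rise of any member in IPC against all other cells (log2 fold change 1.92 ± 0.11 (SE), edgeR adjusted p = 1.75e-05). RGC were higher than all other cells (1.19 on the log2 scale, adjusted p = 5.97e-05) but lower than IPC (-0.72 ± 0.13, adjusted p = 0.00214) by edgeR. Of all classes, microglia had the highest mean level of *Lrp5*, with 72.6 and 52.6 CPM on 19 and 6 UMIs.

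*Ror2* divided the interneurons from other neurons. It was at 106 and 134 CPM in MGE interneurons and 117 and 115 in CGE interneurons, overlapping with each other, but at 7.58 and 6.11 in LGE-type neurons. The fibroblasts of embryo 5 had 381 CPM (interval 329 to 439). RGC had 50.6 and 55.7 CPM, IPC 35.5 and 30.8, and deep-layer, upper-layer and immature excitatory neurons all under 18 CPM. MGE interneurons were higher than all other cells (log2 fold change 2.37 ± 0.13 (SE), edgeR adjusted p = 6.01e-06), as were RGC (log2 fold change 1.07 ± 0.10 (SE), edgeR adjusted p = 0.00015), whereas upper-layer (-1.82), immature excitatory (-1.43) and deep-layer neurons (-0.70 on the log2 scale) were lower. *Wnt7a* and *Ror2* were 2 of the 3 members that were higher in MGE interneurons.

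*Ror1*, the relative of *Ror2*, was low in the large classes, with its highest mean there in LGE-type neurons (1.82 and 10.7 CPM) and 4.21 and 2.04 CPM in RGC. It was at 256 and 245 CPM in pericytes (intervals 217 to 300.2 and 202 to 294), 129 and 134 in the hem class (91.3 to 177 and 76.9 to 218) and 638 in meningeal fibroblasts of embryo 5 (569.8 to 712). Pericytes held 43.1% and 18.9% of its UMIs, a share that moves with the fibroblasts found in embryo 5 alone. *Ror1* was lower in IPC (-2.35), immature excitatory (-2.49) and upper-layer neurons (-4.56) and in MGE interneurons (-4.47 on the log2 scale). When the classes were weighted equally, which leaves pericytes and fibroblasts out, the values of IPC and immature excitatory neurons turned to 0.63 and 0.54. *Ryk*, a receptor known to guide axons away from Wnt sources, varied little: every large class lay between 47.4 and 34.5 CPM in Cajal-Retzius neurons and 86.9 and 83.6 in RGC, and its called differences were at most 0.34 ± 0.06 on the log2 scale, in upper-layer neurons.

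Of the secreted antagonists, *Sfrp1* and *Sfrp2* were highest in radial glia. *Sfrp1*, which binds Wnt ligands outside the cell, was at 385 and 399.8 CPM in RGC, 117 and 128 in IPC, 80.6 and 71.3 in immature excitatory, 56.1 and 50.7 in upper-layer and 31.4 and 28.3 in deep-layer neurons. No class overlapped with the next along this series. RGC were higher than all other cells (log2 fold change 2.80 ± 0.06 (SE), edgeR adjusted p = 8.24e-07) and higher than IPC (log2 fold change 1.60 ± 0.08 (SE), edgeR adjusted p = 1.43e-06), and MGE interneurons were lower (log2 fold change -2.27 ± 0.09 (SE), edgeR adjusted p = 1.24e-06). A *Sfrp1* UMI was found in 85.7% and 89.4% of RGC and, thinned to 2000 UMIs, in 50.8% and 53.2%, against 3.53% and 4.33% of MGE interneurons. The fibroblasts of embryo 5 had 144 CPM, whereas endothelial cells had no *Sfrp1* UMI, where 3 counts correspond to 32.3 and 15.6 CPM.

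*Sfrp2* was likewise highest in RGC, with 44.8 and 42.3 CPM, followed by 17.95 and 14.8 in GABAergic progenitors, while immature excitatory neurons at 11.8 and 7.64 and IPC at 10.01 and 7.81 overlapped. It was higher in RGC than in all other cells (log2 fold change 3.09 ± 0.14 (SE), edgeR adjusted p = 5.29e-06) and than in IPC (log2 fold change 2.20 ± 0.13 (SE), edgeR adjusted p = 3.63e-06). *Dkk3*, a divergent Dkk gene, was at 17.6 and 18.3 CPM in RGC against 3.70 and 2.96 in IPC (log2 fold change 2.34 ± 0.17 (SE), edgeR adjusted p = 1.35e-05). It was higher still in Cajal-Retzius neurons (29.1 and 34.5 CPM) and in the hem class (190.2 and 58.8 CPM, intervals 144 to 247 and 23.7 to 121), where the embryos differed beyond counting error. Against all other cells, RGC had 2.41 ± 0.13 more *Dkk3* on the log2 scale (edgeR adjusted p = 1.05e-05).

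*Dkk2*, which blocks Lrp co-receptors, had its highest level in pericytes. It was at 92.1 and 174 CPM there (intervals 69.2 to 120.2 and 139 to 217), and these cells held 24.3% and 30.5% of its UMIs, while immature excitatory neurons held 16.7% and 15.99% at a low level. In large classes it reached at most 4.55 and 17.3 CPM, in LGE-type neurons, where the embryos differed. *Dkk2* was lower in upper-layer (-4.17) and deep-layer neurons (-2.16 on the log2 scale), in IPC (-1.47) and in RGC (-0.98). The last 2 of these values turned to 0.03 and 0.62 in the equally weighted fit. All 4 modulators tested were lower in both layered neuron classes, of which *Sfrp1* in upper-layer neurons turned to 0.28 in that fit.

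R-spondins, which preserve Frizzled at the membrane, were concentrated in the hem. In the hem class *Rspo2* was at 3369.8 and 2605 CPM (intervals 3163 to 3586 and 2323 to 2912), *Rspo3* at 2979 and 2412 (2785 to 3183 and 2141 to 2708) and *Rspo1* at 588 and 588 (503 to 682 and 459 to 743). These cells held 76.5% and 58.6% of all *Rspo2* and 71.2% and 49.6% of all *Rspo1* UMIs. *Rspo3* differed from the other 2 in that the hem held only 6.86% and 2.74% of its UMIs, and deep-layer neurons held 44.6% and 44.6%.

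*Rspo3* was at 604 and 575 CPM in Cajal-Retzius neurons, 289 and 262 in deep-layer and 135 and 133 in upper-layer neurons, and at or under 13.9 and 9.32 CPM, the level of immature excitatory neurons, in the other large classes. The 3 clusters of deep-layer neurons had 402 and 343, 267 and 257 and 229 and 198 CPM, and an unnamed cluster of 1073 cells led by *Ntm* and *Slc4a4* had 385 and 372. Deep-layer neurons were higher than all other cells (log2 fold change 2.01 ± 0.09 (SE), edgeR adjusted p = 5.68e-06), and upper-layer neurons slightly so (log2 fold change 0.35 ± 0.08 (SE), edgeR adjusted p = 0.0161). MGE interneurons (-5.91), IPC (-4.95), RGC (-4.69) and immature excitatory neurons (-3.37) were lower on the log2 scale. *Rspo2* outside the hem was found in Cajal-Retzius neurons at 51.7 and 78.2 CPM and under 5 CPM in the other large classes. Of the large classes, Cajal-Retzius neurons had the highest mean level of *Wnt4*, *Wnt7b*, *Rspo1*, *Rspo2* and *Rspo3*.

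Of the receptors of R-spondins, *Lgr4* was at 45.8 and 31.9 CPM in GABAergic progenitors, 20.9 and 27.00 in LGE-type neurons, 16.8 and 16.3 in CGE interneurons and 20.5 and 8.05 in Cajal-Retzius neurons, and at 97.7 in the fibroblasts of embryo 5. Its higher levels thus lay in GABAergic classes, Cajal-Retzius neurons and fibroblasts. In the excitatory lineage it was at 5.96 and 8.89 CPM in RGC and 1.67 and 0.942 in IPC (log2 fold change 2.40 ± 0.36 (SE), edgeR adjusted p = 0.000773). It was lower in IPC (-2.26) and immature excitatory neurons (-2.44), and slightly higher in MGE interneurons (log2 fold change 0.61 ± 0.20 (SE), edgeR adjusted p = 0.0461), a call that DESeq2, keeping doublets and dropping the filter on low counts each removed. *Lgr5* reached 7.84 and 23.9 CPM in CGE interneurons, on 14 and 53 UMIs, and *Lgr6* 6.16 and 8.13 in the same class. Both were highest in CGE interneurons among the large classes, at low counts. Deep-layer neurons held 20 of 73 and 51 of 139 *Lgr5* UMIs, at 1.01 and 2.86 CPM. *Rspo1* was higher in RGC than in IPC (log2 fold change 3.62 ± 0.71 (SE), edgeR adjusted p = 0.00338), at 2.27 and 1.25 and 0.119 and 0.135 CPM. Of the classes rich in R-spondins, the hem had 20.4 and 0 CPM of *Lgr4* and deep-layer neurons 3.45 and 4.27, and Cajal-Retzius neurons had 20.5 and 8.05.

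The nuclear factors of the pathway were distributed unequally. *Tcf7l1*, which mostly represses targets, was at 148 and 201 CPM in RGC, 54.8 and 55.2 in GABAergic progenitors and 14.9 and 19.5 in IPC, and under 4 CPM in immature, layered, Cajal-Retzius, MGE and LGE-type neurons. It gave the largest rise of any member in RGC against all other cells (log2 fold change 4.49 ± 0.17 (SE), edgeR adjusted p = 3.12e-06) and was also higher than in IPC (log2 fold change 3.27 ± 0.19 (SE), edgeR adjusted p = 3.02e-06). The 2 embryos differed beyond counting error in RGC (intervals 142 to 154 and 194 to 208), though by far less than the classes did.

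*Tcf7l2* was at 166 and 134 CPM in GABAergic progenitors and 124 and 157 in RGC, which overlapped, and at 26.4 and 22.2 in immature excitatory neurons and 20.6 and 19.5 in IPC. Within GABAergic progenitors the cluster without cycling genes had 278 and 291 CPM and the cycling one 73.8 and 61.7. The former scored nearly as high for RGC markers (mean log2 ratio 1.73) as for its own (1.94). RGC were higher than all other cells (log2 fold change 3.32 ± 0.13 (SE), edgeR adjusted p = 2.89e-06) and than IPC (log2 fold change 2.73 ± 0.14 (SE), edgeR adjusted p = 1.55e-06), and the loss in neurons was large: -5.39 ± 0.24 in deep-layer neurons and -5.08 ± 0.26 in MGE interneurons on the log2 scale (adjusted p = 6.16e-06 and 5.06e-06 by edgeR). IPC were lower than all other cells for *Tcf7l1* (-1.02) and *Tcf7l2* (-0.77), but with equal weights these values were 1.44 and 1.57.

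*Lef1*, a factor that mostly activates targets, was kept beyond the progenitors in some neuron classes. It was at 61.3 and 55.6 CPM in RGC, 38.7 and 31.4 in IPC, 38.6 and 31.95 in immature excitatory and 75.4 and 55.2 in Cajal-Retzius neurons. Upper-layer neurons had less, with a mean of 11.7 CPM over the embryos. Deep-layer neurons averaged 25.8 and 20.4 CPM, but their clusters differed, with 66.1 and 49.9 CPM in the cluster led by Slit3 and *Crym*, 11.9 and 10.5 in the second and 2.78 and 2.17 in the cluster led by Hs3st4. MGE interneurons had 1.06 and 0.459 CPM and gave the strongest decrease of *Lef1* (log2 fold change -5.33 ± 0.26 (SE), edgeR adjusted p = 3.53e-06). RGC were higher than IPC (log2 fold change 0.66 ± 0.11 (SE), edgeR adjusted p = 0.00166) and than all other cells (1.11 on the log2 scale). No GABAergic neuron class passed 12.1 and 17.8 CPM, the level in LGE-type neurons.

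Endothelial cells had by far the most *Lef1*, at 1368 and 716 CPM (intervals 1140.4 to 1628 and 602 to 846), where it is a known mark of Wnt signalling at the blood-brain barrier. *Tcf7*, a gene of the same family, was at 86.2 and 72.6 CPM there (37.2 to 169.8 and 39.7 to 122), 22.2 and 31.9 in pericytes and under 4 CPM in every large class. *Tcf7l1* was at 269 and 104 and *Tcf7l2* at 215 and 182 CPM in endothelial cells. All 4 factors were thus measured in these 45 cells. They also all reached 10 CPM in pericytes of both embryos and in the fibroblasts of embryo 5. Microglia had 103 and 210.3 CPM of *Tcf7l2* with no UMI of the other 3.

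**Figure D5:**
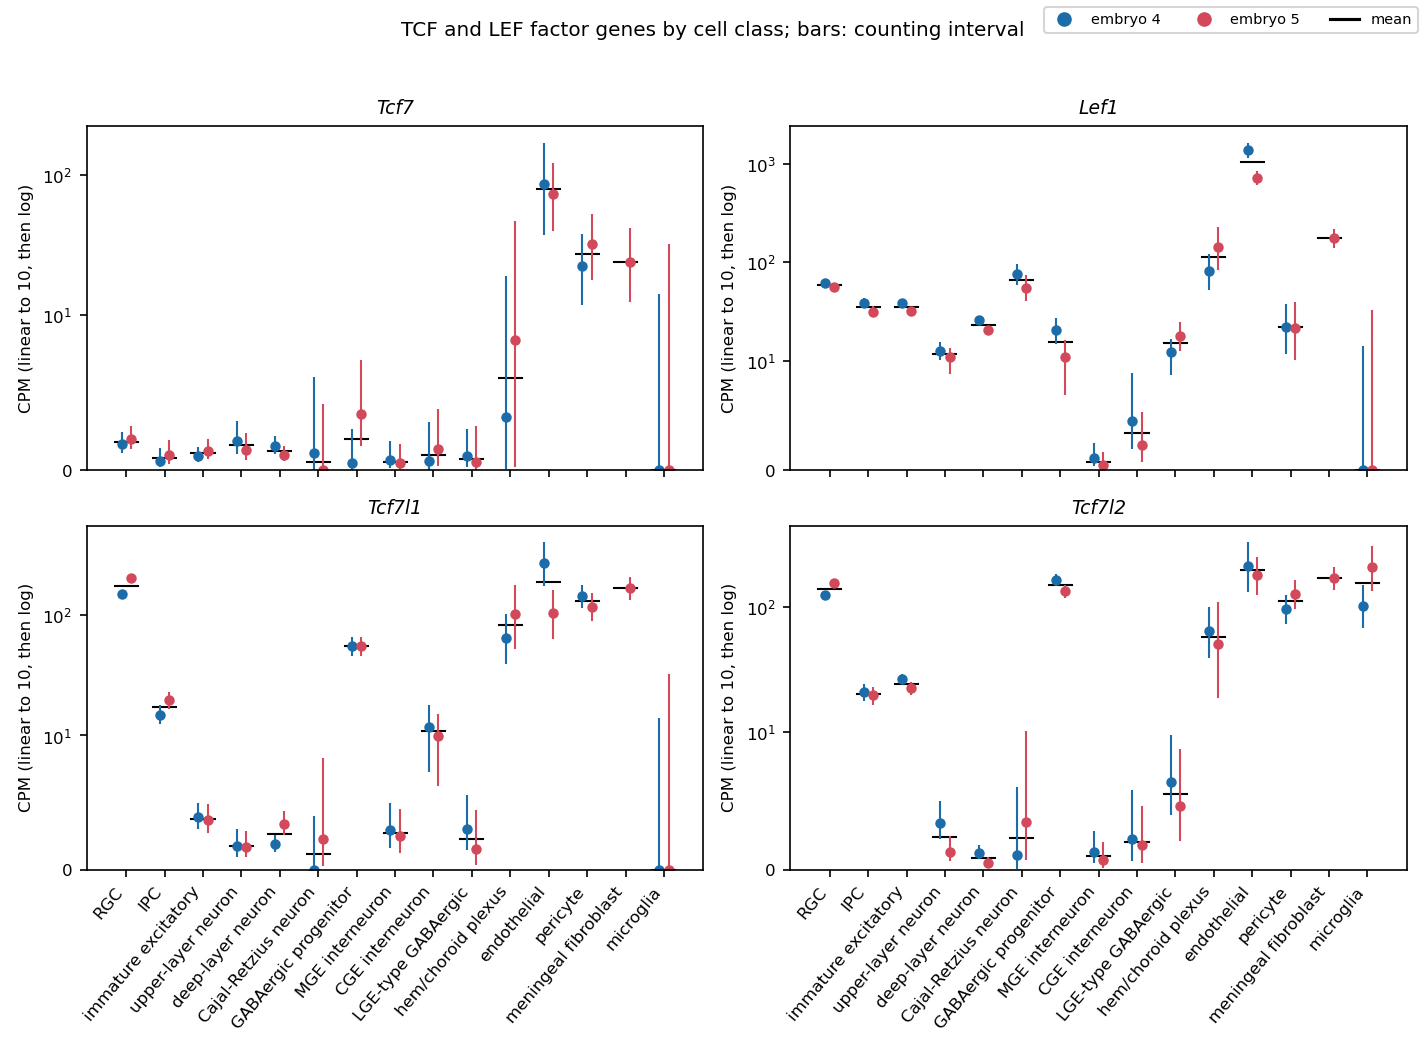
CPM of *Tcf7*, *Lef1*, *Tcf7l1* and *Tcf7l2* in the 15 classes, with 1 point per embryo, its exact 95% Poisson interval and a line at the mean, on axes that are linear to 10 CPM and logarithmic above (fibroblasts come from embryo 5 alone). *Tcf7l1* and *Tcf7l2* are high in RGC and GABAergic progenitors and fall in neurons. *Lef1* stays above 10 CPM in excitatory classes and near 0 in MGE interneurons. All 4 are present in endothelial cells, pericytes and fibroblasts.

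*Axin2*, which both answers and limits beta-catenin signalling and is widely read as its reporter, was highest in the hem class at 187 and 294 CPM (intervals 141 to 243 and 205 to 409). Next were meningeal fibroblasts with 151, pericytes with 95.5 and 121 and endothelial cells with 43.1 and 41.5 CPM. In the large classes its mean was lowest in deep-layer neurons with 6.64 and 7.02 CPM and highest in RGC with 18.99 and 20.3, while IPC had 8.35 and 13.9. RGC were higher than all other cells (log2 fold change 0.91 ± 0.12 (SE), edgeR adjusted p = 0.000674) and than IPC (log2 fold change 0.76 ± 0.20 (SE), edgeR adjusted p = 0.0148), and deep-layer neurons were lower (log2 fold change -0.64 ± 0.12 (SE), edgeR adjusted p = 0.00489). The hem, fibroblast and pericyte classes thus lay above every large class. The endothelial values were also higher, but they rest on 4 and 8 UMIs. With so few counts, counting error does not set endothelial cells apart from RGC.

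To show what the start regions of such genes hold, the 250 bases before a transcription start were read. They came from RefSeq promoters of the GRCm38.p6 build, the assembly of the deposited counts. *Axin2* was taken as the reporter of the pathway and *Wnt5b* as a ligand found in progenitors, among other classes. Both starts lie inside the annotated span of their gene, and that of *Wnt5b* is 1 of 3 listed. For *Axin2*, on chromosome 11, the bases shown are chr11:108920099-108920348 on the plus strand. For *Wnt5b*, on chromosome 6, they are chr6:119449387-119449636 on the minus strand. Capitals mark the TCF/LEF motif CTTTGAT, searched on both strands and overlapping no other motif searched.
Axin2: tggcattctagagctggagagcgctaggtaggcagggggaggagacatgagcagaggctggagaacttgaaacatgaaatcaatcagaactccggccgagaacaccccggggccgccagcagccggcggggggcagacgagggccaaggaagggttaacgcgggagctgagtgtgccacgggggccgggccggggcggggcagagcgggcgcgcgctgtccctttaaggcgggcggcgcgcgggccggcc
Wnt5b: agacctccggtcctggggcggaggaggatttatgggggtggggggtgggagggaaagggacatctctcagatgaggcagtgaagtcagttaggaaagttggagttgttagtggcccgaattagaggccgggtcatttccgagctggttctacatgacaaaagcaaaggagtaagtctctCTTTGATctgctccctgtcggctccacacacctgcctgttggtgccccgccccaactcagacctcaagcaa
The motif was found 71 bases before this start of *Wnt5b* and not in these bases of *Axin2*, which says nothing about sites elsewhere in either gene. Of 43 start regions of 35 members, 2 (4.65%) held the motif, those of *Wnt5b* and *Wnt11*, against 3.21% of 32851 start regions of all genes. A match of letters is not a binding site, and no binding was measured here.

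Other genes of the pathway were read from 4 lists. Only the members had been kept out of the clustering, so genes of these lists could help to form the classes. Their p-values are therefore not independent of how the classes were made. The first held 22 genes of Wnt secretion and further extracellular modulators, of which 16 were tested in RGC and MGE interneurons. In RGC 7 were higher and 5 lower, beside 31.5% and 34.8% of all genes, with a median log2 fold change of 0.10 against -0.05 over all genes. In MGE interneurons 1 was higher and 6 were lower, beside 17.4% and 24.0% of all genes (median -0.14 against -0.05). *Wls*, which carries Wnt proteins to the cell surface, was the higher gene. It was at 115 and 114 CPM in MGE interneurons and 114 and 108 in CGE interneurons, against 13.4 and 10.8 in RGC, 1.49 and 0.784 in upper-layer and 2.99 and 3.14 in deep-layer neurons, and at 509.5 and 958 in the hem class. MGE interneurons were higher than all other cells (log2 fold change 3.30 ± 0.10 (SE), edgeR adjusted p = 3.5e-07), and upper-layer neurons lower (log2 fold change -3.84 ± 0.23 (SE), edgeR adjusted p = 3.97e-05). *Wls* was thus high in the interneurons that had *Wnt7a* and low in the layered neurons that had *Wnt7b*. In RGC, which held 49.2% and 51.1% of the *Wnt7a* UMIs, *Wls* was far lower than in these interneurons. *Gpc4*, a glypican gene, was lower in MGE interneurons (log2 fold change -5.01 ± 0.19 (SE), edgeR adjusted p = 1.16e-06).

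The co-factors by which Wnt7 ligands act on vessels were distributed differently over the large classes. *Adgra2*, also known as Gpr124, was at 75.4 and 88.2 CPM in endothelial cells, 37.5 and 57.4 in pericytes and 77.7 in fibroblasts of embryo 5, and under 2 CPM in every large class. *Reck* was at 32.3 and 15.6 CPM in endothelial cells and 51.7 and 48.3 in IPC. It was higher in IPC than in all other cells (log2 fold change 1.28 ± 0.08 (SE), edgeR adjusted p = 2.82e-05) and than in RGC, where the RGC to IPC difference was -1.21 ± 0.10 on the log2 scale (edgeR adjusted p = 2.23e-05).

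Of 25 genes of the intracellular beta-catenin pathway, all tested against other cells, RGC had 5 higher and 13 lower beside 31.5% and 34.8% of all genes (median log2 fold change -0.19 against -0.05), and IPC 8 and 8 beside 22.2% and 26.1%. Immature excitatory neurons had 11 higher and 3 lower beside 23.0% and 28.1%, and upper-layer neurons 11 and 2 beside 15.8% and 23.3% (median 0.18 against -0.06). Deep-layer neurons had 11 and 7 beside 25.1% and 27.1%, so that the lower genes were near their background, and MGE interneurons 9 and 5 beside 17.4% and 24.0%. *Ctnnb1*, the beta-catenin gene, was at 498 and 475 CPM in IPC, 388 and 364 in RGC, 299.6 and 286 in immature excitatory, 227 and 206 in upper-layer and 133 and 129.8 in deep-layer neurons. IPC were higher than all other cells (log2 fold change 1.06 ± 0.06 (SE), edgeR adjusted p = 1.09e-05) and higher than RGC, with an RGC to IPC difference of -0.45 ± 0.07 on the log2 scale (edgeR adjusted p = 0.000917). Unlike *Ctnnb1*, *Apc2*, a relative of the destruction complex gene *Apc*, was lower in RGC (log2 fold change -3.05 ± 0.07 (SE), edgeR adjusted p = 8.59e-07), and so was the co-repressor gene *Tle2* (log2 fold change -4.16 ± 0.30 (SE), edgeR adjusted p = 4.47e-05). *Tle4*, another co-repressor gene, was at 605 and 729 CPM in deep-layer neurons, where it had served as a marker. It is named with a level only, but it is among the 25 genes tested and so enters the deep-layer counts given above.

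Of 12 planar polarity genes, all tested, 6 were higher and 5 lower in RGC (background 31.5% and 34.8%, median 0.52 against -0.05 over all genes), 2 and 5 in IPC (background 22.2% and 26.1%), and 3 and 7 in MGE interneurons (background 17.4% and 24.0%, median -0.73 against -0.05). *Celsr1*, a cadherin of this branch, was at 259 and 269.7 CPM in IPC (log2 fold change 2.34 ± 0.06 (SE), edgeR adjusted p = 5.43e-07) and at 1.91 and 1.61 in MGE interneurons (log2 fold change -5.31 ± 0.15 (SE), edgeR adjusted p = 2.91e-07). *Celsr3*, its relative, was lower in RGC (log2 fold change -4.36 ± 0.19 (SE), edgeR adjusted p = 5.38e-06). *Prickle1* was at 283 and 301 CPM in deep-layer neurons. It was among the leading genes of the deep-layer cluster led by Hs3st4, and is given as a level only. These genes thus went with different classes. The last list held 10 targets and feedback genes, of which *Notum*, *Apcdd1*, *Znrf3* and *Rnf43* also stood in the first list, so that these lists are not separate. In RGC 9 were tested, with 3 higher and 3 lower, near the background of 31.5% and 34.8% (median 0.67 against -0.05). In MGE interneurons none was higher and 5 were lower beside 17.4% and 24.0% (median -2.25 against -0.05). Those lower in MGE interneurons included *Tnfrsf19* (-3.92), *Apcdd1* (-3.37) and *Nkd1* (-3.22 on the log2 scale), of which *Tnfrsf19* was at 105 and 100 CPM in RGC.

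Of the 178 member calls in these comparisons, none was lost when the embryo was kept as a block, and each kept its sign in either embryo alone. In the annotation 11 of the 50 members overlap another gene on the same strand, among them *Wnt5b*, *Fzd3*, *Ror1*, *Ryk*, *Rspo3*, *Lef1*, *Tcf7l1* and *Tcf7l2*, and how the counting assigned shared reads was not given in the sources used here.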

How the data were processed

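Cortices of 2 wild-type embryos (embryonic day 16.5) were profiled with 10x Genomics 3′ v3.1 single-cell RNA libraries. The deposited matrices hold UMI counts per gene and barcode, made by the authors with Cell Ranger (7.0.0 in the submitters' processing notes, 7.1.0 in the matrix headers) on mm10. Whether intronic reads were counted is not given in the sources used here.

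Cells with under 1000 detected genes or over 10% mitochondrial counts were removed, as were doublets called by simulation (0.8% per 1000 cells). This left 9932 of 12825 and 10416 of 12289 barcodes, with 103281687 and 97060929 UMIs. Clustering used scanpy 1.11.5 (2000 variable genes without the members, 30 components, 20 neighbours, Leiden resolution 1.0), and a cluster was named from at least 3 detected markers with a mean log2 ratio of at least 0.5. It stayed unnamed where another class had more markers among its 10 leading genes. A cluster of low depth with no marker of its own among them also stayed unnamed. UMI counts were summed per class and embryo and tested with edgeR 4.0.16 (quasi-likelihood, TMM, filterByExpr, each class against the sum of the other kept cells) in R 4.3.3, at a Benjamini-Hochberg adjusted p of 0.05 over all genes. DESeq2 1.42.0 served as an alternative. Class and rest come from the same embryo, and their deviations correlated at 0.148 to 0.232, so that the embryos pair the sums. The design had no block, and the blocked fit is an alternative. Nothing states that the embryos came from separate litters, so p-values measure the spread between these 2 libraries.

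Intervals are exact 95% Poisson, and the floor is 3 counts. The edgeR step was tested on simulated counts. Named with values were members called in a comparison (at most the 5 largest changes per role), members with a class mean of at least 50 CPM, *Wnt7a*, and at most 4 genes per further list. The members and lists were chosen with earlier results of these data known. Endothelial cells were too few for their planned comparison. The fit over all classes sets each class against the equally weighted mean of the others of the 10 larger classes.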

Additional observations from a re-analysis of the deposited data

How the results depend on the processing

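The replicate block, which pairs the sums of an embryo, changed none of the 178 calls of members (18 members were higher in RGC with it, as without), and each call kept its sign without embryo 4 or embryo 5, which leaves 1 library a side and no residual degrees of freedom for a test. Of 2763 recomputed values of single members, 2564 kept their call, 160 lost it and 39 turned; of 218 recomputed counts, 198 stayed within 1.5 times. Leaving out a tied or a shallow cluster was chosen after seeing the data. The cause of these changes was not tested.

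The fit over 10 classes moved the counts of members to 4 lower in RGC, 18 higher and 3 lower in IPC, 7 lower in immature excitatory neurons, 8 higher and 15 lower in deep-layer neurons, 8 higher and 11 lower in upper-layer neurons and 14 lower in MGE interneurons. Without cycling clusters, 6 were lower in RGC and 14 higher in IPC. In deep-layer neurons 2 were higher with at least 500 or 1500 genes, at most 5% mitochondrial counts, doublets kept, resolution 0.5 or 2, members in the clustering, or without the tied cluster, and in upper-layer neurons 3 were higher with at least 500 genes. The shares of all genes called under these settings are not given, so these counts have no background beside them.

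In the fit over 10 classes these log2 fold changes turned: *Fzd1* (0.91) and *Dkk2* (0.62) in RGC, *Dkk2* (0.031), *Ror1* (0.63), *Tcf7l1* (1.44), *Tcf7l2* (1.57), *Wnt7a* (0.14) and *Wnt7b* (0.18) in IPC, *Fzd7* (0.94), *Fzd9* (0.68), *Ror1* (0.54), *Sfrp1* (0.83) and *Wnt5b* (0.0065) in immature excitatory neurons, *Wnt8b* (0.47) in deep-layer and *Sfrp1* (0.28) and *Rspo2* (1.91) in upper-layer neurons. With at least 500 genes, at least 1500 genes, at most 5% mitochondrial counts, doublets kept, resolution 2, members in the clustering and without the tied cluster, deep-layer *Wnt5a* was -1.39, -1.28, -1.02, -1.10, -0.99, -1.01 and -0.76 and *Fzd7* -0.69, -0.86, -0.68, -0.74, -0.65, -0.68 and -0.36. Immature excitatory *Wnt5a* was -0.17, -0.31, -0.34 and -0.12 with at least 500 genes, at least 1500 genes, at most 5% mitochondrial counts and without the tied cluster, and *Lef1* there was -0.015 with at least 500 genes. At most 5% mitochondrial counts gave *Dkk2* in IPC 0.078 and *Fzd1* and *Rspo2* in upper-layer neurons -0.34 and 0.19, and keeping doublets gave *Rspo1* in MGE interneurons 0.21.

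Depth sets the share of cells with a UMI: thinned to 2000 UMIs, as a mean over embryos, it was 8.70% instead of 34.6% for *Wnt7a* in RGC, 11.9% instead of 29.7% in MGE interneurons, 24.3% instead of 66.3% for *Wnt7b* in upper-layer neurons, and 52.0%, 27.0% and 8.97% instead of 87.5%, 66.8% and 29.8% for *Sfrp1*, *Tcf7l1* and *Lef1* in RGC.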
